A study of Mus musculus with 12 samples.

Results

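The comparison set the late state of a treated kidney cell line against its early state: 3 libraries taken 12 days after treatment with 4-hydroxytamoxifen against 3 taken 2 days after it. These 6 of the 12 libraries of the study were chosen by the day in their labels, and no untreated library entered the fit. PT-22 is a mouse kidney line labelled as proximal tubule, and all groups carry the genotype Pax2-/-,Pax8fl/fl,Rosa-CreERT2. Pax2 is therefore labelled as lost in every library, controls included. Both groups had received 1 µM of 4-hydroxytamoxifen, the ligand that activates the Cre recombinase fused to an oestrogen receptor domain and expressed from the ubiquitous Rosa locus. The labels give an exposure of 2 days, so the day 2 libraries were taken at about its end. Time since the drug, time in confluent culture and time since recombination all differ between the groups and cannot be told apart. A single line was used, the labels name no vehicle control and no untreated culture of later age, and the age and sex of the source animal are not given. Nothing says that libraries A, B and C of a day came from separate cultures, so each p-value refers to the spread among these libraries alone, which may be technical.

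PAX2 and PAX8 are paired-box transcription factors that specify the nephric lineage and the renal epithelium, and they bind many of the same sites. The proximal tubule is a polarised epithelium that reabsorbs most filtered solutes, and its cells can lose epithelial genes and gain mesenchymal, inflammatory and matrix genes when they are injured. Confluent cultures can also change with age, for example as cells divide less. Whether culture age contributed to the differences below was not tested.

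Library totals ran from 4326667 to 11654959 counts at day 2 and from 8653400 to 9733611 at day 12. Mitochondrial transcripts took 4.11% to 5.70% of the counts at day 2 and 4.11% to 4.94% at day 12 (exact two-sided permutation p = 0.6, n = 3 and 3). The nuclear RNA Malat1 took 0.225% ± 0.00994 at day 2 and 0.270% ± 0.0143 at day 12 (SD, n = 3 each), with no overlap and an exact permutation p of 0.1, the smallest that 3 against 3 libraries allow. The first principal component held 74.1% of the variance and separated the days. The second held 9.59% and set day 2 B, the library of lowest depth, apart from day 2 A and C. Expression was measured as CPM, counts divided by library size and scaled between libraries by the trimmed mean of M-values (TMM). A gene was called when edgeR's quasi-likelihood test gave a Benjamini-Hochberg adjusted p under 0.05 over the 12978 genes that passed the count filter. Rises and falls refer to called genes only, at day 12 relative to day 2.

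The gene targeted by the recombinase was read first. Pax8 (ENSMUSG00000026976, chromosome 2, 24420560 to 24475599, minus strand, GRCm38) stood at 379, 464 and 366 CPM in day 2 libraries A, B and C and at 251, 230.1 and 241 CPM in the day 12 libraries. The groups did not overlap, and the transcript fell by 0.74 on the log2 scale (SE 0.0773, edgeR adjusted p 4.39e-07). Both treated groups lay at or above the untreated mean of 225 ± 3.32 CPM (SD, n = 3). The labels do not say which exons are flanked by loxP sites, and a gene total includes exons outside them, so this value does not check the deletion. Pax2 transcripts were also counted in each library, at 68.4, 85.3 and 61.8 CPM on day 2 and 54.3, 47.1 and 49.5 CPM on day 12, although the genotype names a null allele. The Cre transcript did not pass the test, with 26.1 ± 1.12 CPM early and 27.8 ± 0.523 CPM late (SD, n = 3 each).

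The late state differed from the early state in a large share of the transcriptome. Of the 12978 genes tested, 5590 (43.1%) were called, 2778 of them higher at day 12 (21.4%) and 2812 lower (21.7%). A change of at least 2-fold was called in 1036 genes (7.98%), with 662 higher (5.1%) and 374 lower (2.88%). Most called changes were small: the median absolute log2 change among called genes was 0.47, and the median over all tested genes was -0.0038. For single genes below it is stated where the 3 libraries of one day all lay above the 3 of the other. A call already favours such separation, and uncalled genes such as Cre showed it too, so it is no separate support. With limma on the deposited TPM values the split of the calls moved from 49.7% higher to 64.1% higher, and fewer genes were called lower (1269). For lists whose count of lower members moved by more than 1.5 times on that scale, the TPM count is given as well.

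**Figure D1:**
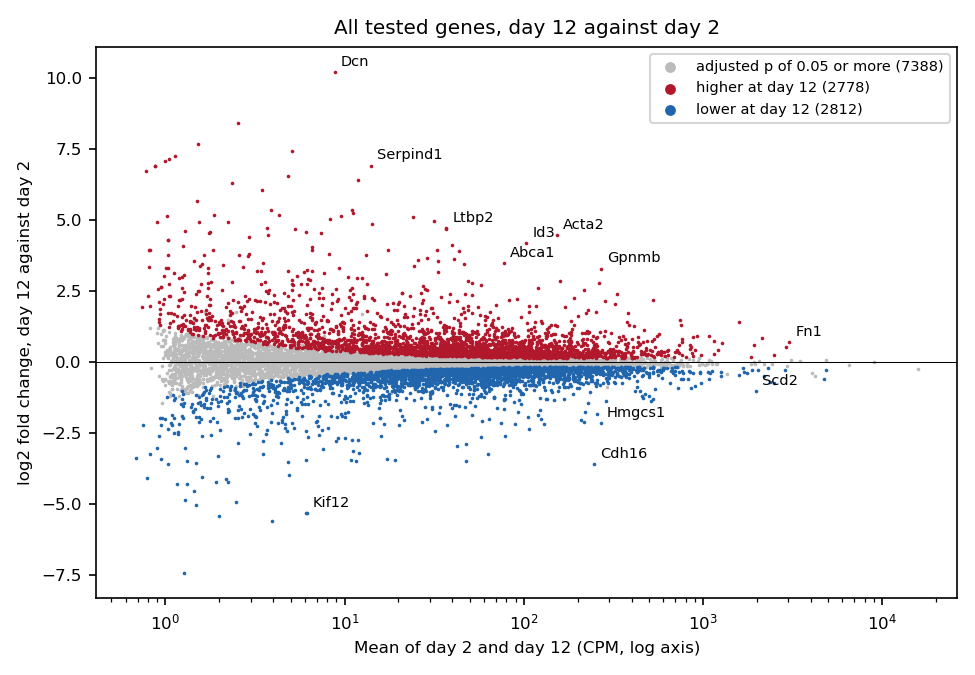
Each point is 1 of the 12978 tested genes, with the mean CPM over the 2 days on a log axis and the log2 fold change of day 12 against day 2 on the other axis. Called genes spread to both sides, and the largest rises pass further from 0 than the largest falls (from -7.42 to 10.22); the value of Dcn rests on day 2 counts of 0 and depends on the fit.

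The largest rises included genes of a matrix proteoglycan, a chemokine and a collagenase, and the largest falls included epithelial transport and surface genes. Dcn, which encodes the collagen-binding proteoglycan decorin, was not counted in any of the 3 day 2 libraries (0 counts), whereas the late libraries held 17.9, 18.9 and 16.3 CPM. With 3 counts over the day 2 group as the floor, the late level was at least 137-fold higher. Serpind1, heparin cofactor II, went from 0.408, 0 and 0.1702 CPM to 27.9, 25.3 and 30.02 CPM. All day 12 libraries lay far above all day 2 libraries for both genes. Lack of overlap was itself a condition for the ranking of rises and falls. The chemokine gene Cxcl15 rose from a mean of 0.322 to 23.5 CPM (log2 change 6.43, SE 0.279), and the collagenase gene Mmp13 from 0.476 to 18.7 CPM. The arginine and lysine transporter gene Slc7a2 rose from 1.78 to 61.5 CPM, Pdgfrl from 1.12 to 27.2 CPM and Ltbp2, a latent TGF-beta binding protein homologue of microfibrils, from 2.55 to 71.1 CPM.

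Kif12, a kinesin gene expressed in kidney epithelium, stood at 13.5, 9.42 and 12.9 CPM on day 2 and at 0.232, 0.446 and 0.205 CPM on day 12. The neutral amino acid transporter gene Slc6a18 stood at 14.4, 10.6 and 10.9 CPM and then at 0.464, 0.223 and 0.205 CPM. In both genes every day 12 library was below 1 CPM and every day 2 library above 9 CPM. Their untreated means were higher still, 41.8 CPM for Kif12 and 71.02 CPM for Slc6a18. The epithelial transcription factor gene Ehf fell from 21.2 to 1.88 CPM and the branched-chain aminotransferase gene Bcat1 from 19.99 to 1.84 CPM. Homer2, a postsynaptic scaffold family member, fell 10.7-fold, Tmem169 10.5-fold and ccdc198 9.42-fold on the ratio of fitted values.

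The 2-fold rises of highest count included several genes of secreted proteins. Ceruloplasmin (Cp), the copper-binding ferroxidase, went from 919, 773 and 907 CPM to 2291, 2342 and 2328 CPM. Clusterin (Clu), an extracellular chaperone induced in injured tubules, went from 184, 194 and 197 CPM to 849, 859 and 893 CPM. The groups did not overlap for either, which the choice of these genes required. Complement C3 rose 2.51-fold, Aebp1, a collagen-binding matrix protein, 2.85-fold, the actin-bundling LIM protein gene Csrp1 2.22-fold and Npnt, an integrin ligand of kidney basement membrane, 2.45-fold. Gpnmb, a glycoprotein of late endosomes and lysosomes chosen after its values were seen, went from 54.3, 50.6 and 44.5 CPM to 507, 494 and 459 CPM. The falls in transcripts of high count were led by the desaturase gene Scd2 (2579, 2910.3 and 2414 CPM, then 1347, 1298 and 1270.2 CPM). The tensin gene Tns1 fell 2.46-fold, the scaffold gene Akap12 2.38-fold and Ivns1abp, a kelch-repeat protein gene, 2.14-fold.

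**Figure D2:**
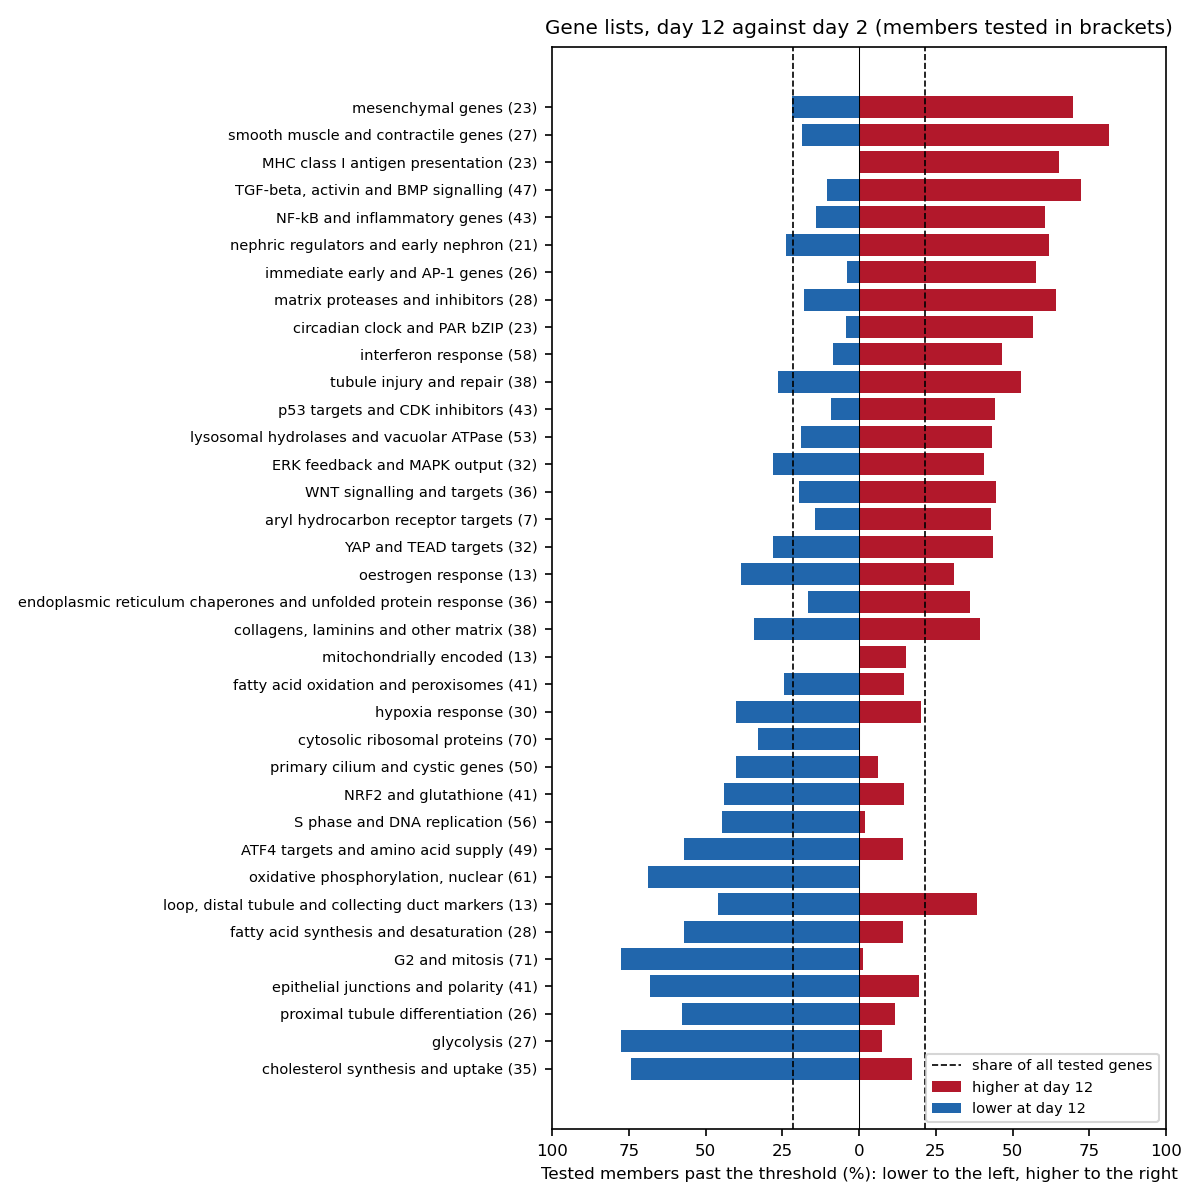
Bars give the percent of each gene list's tested members that were called higher (right) or lower (left) at day 12, with lists ordered by median log2 change and dashed lines at the shares over all tested genes (21.4% higher, 21.7% lower). Contractile, TGF-beta and mesenchymal genes extend past the dashed line on the right, and mitosis, glycolysis and cholesterol genes on the left.

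Proximal tubule genes were mostly lower in the late state. Of 48 listed, 26 were measured well enough to test: 15 fell and 3 rose, with a median log2 change of -0.67 beside -0.0038 over all tested genes. Cdh16, the kidney-specific cadherin and a known PAX8 target, stood at 475, 438 and 452 CPM on day 2 and 41.5, 34.2 and 37.5 CPM on day 12. The groups were 12.1-fold apart with no overlap (log2 change -3.59, SE 0.0745, edgeR adjusted p 1.17e-18), and day 6 stood between them at 80.6 CPM. Cdh6, a cadherin of nephron progenitors and proximal tubule, went from 346, 335 and 342 CPM to 101, 101 and 100.3 CPM. Anpep, the brush-border aminopeptidase N, fell from 33.2 ± 2.399 to 7.07 ± 0.534 CPM (SD, n = 3 each). Among the rises, Ass1, which makes argininosuccinate for arginine synthesis, went from 37.6, 34.6 and 33.4 CPM to 98.8, 104 and 95.8 CPM, and Khk (ketohexokinase) from a mean of 5.74 to 9.55 CPM, a call that limma on TPM did not make.

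Hnf4a, the nuclear receptor that drives proximal tubule maturation, was the third gene called higher, but it was near the limit of detection. Its levels were 0.681, 1.65 and 0.766 CPM in the early libraries and 2.55, 2.34 and 1.23 CPM in the late ones, the groups overlapped, and the untreated mean was 12.8 CPM. The call (edgeR adjusted p 0.0373) was lost in 8 of 13 alternatives, including without day 2 A (0.137), day 2 C (0.15), day 12 A (0.136) or day 12 B (0.114), over a range of 0.0149 to 0.704. The endocytic receptor megalin (Lrp2) stood at 120.0, 101 and 115 CPM and then 97.2, 92.02 and 97.1 CPM, a fall by 0.24 on the log2 scale that was not called without day 2 A (adjusted p 0.0618) or day 12 B (0.0566) (range over 13 alternatives 0.000423 to 0.441). The defining transporters of the mature tubule, Slc34a1 for phosphate and Slc5a2 for glucose, had 0 counts in all 6 libraries. The label of the line therefore rests on other markers: the summed level of 12 proximal tubule markers was 1278 to 1379 CPM at day 2 and 771 to 982 CPM at day 12. Most of the day 12 sum was the water channel gene Aqp1, at 578, 541 and 558 CPM on day 2 and 737, 542 and 687 CPM on day 12. Its groups overlapped and it was not called (edgeR adjusted p 0.0692), but 4 of 13 alternatives called it higher, among them the fit without day 12 B (0.000914, range 0.000914 to 0.311). The other 11 markers summed to 737 to 801 CPM at day 2 and 229 to 245 CPM at day 12. Most of that difference was Cdh16, with means of 454.9 and then 37.75 CPM. In bulk RNA, fewer cells of a kind and less RNA per cell cannot be told apart.

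Junction and polarity genes fell in 28 of 41 tested members and rose in 8 (median log2 change -0.49). E-cadherin (Cdh1) stood at 15.1, 22.1 and 14.98 CPM on day 2 and 2.55, 2.79 and 2.66 CPM on day 12, with day 2 B the highest library and no overlap. P-cadherin (Cdh3) fell from 141 ± 8.82 to 51.4 ± 1.59 CPM, the tight junction protein gene Ocln from 19.2 ± 2.79 to 7.41 ± 0.801 CPM and the claudin gene Cldn1 from 24.3 ± 5.32 to 9.398 ± 0.829 CPM (SD, n = 3 each). N-cadherin (Cdh2), a cadherin that proximal tubule cells also carry, fell from 110.1 to 72.1 CPM. The 8 rises were not cadherins or claudins: beta-catenin (Ctnnb1), which links cadherins to actin and carries WNT signals, rose from 615 to 1155 CPM, and the junctional adhesion molecule gene F11r from 116 to 258 CPM. The others included Ctnna1, Ctnnd1, Tjp1, Pard3 and Mpp5, which encode catenins and scaffold proteins.

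Regulators of the early nephron went the other way from tubule genes in part. Of 21 tested, 13 rose and 5 fell, among the latter Pax8 and Pax2 themselves (3 fell with limma on TPM). Maf, a leucine zipper factor of the developing proximal tubule, stood at 70.5, 65.02 and 61.4 CPM and then 334, 302 and 308 CPM. Eya1, a SIX-partner phosphatase of nephron progenitors, stood at 71.9, 67.6 and 65.8 CPM and then 155, 158 and 168 CPM. Both were higher in all day 12 libraries. The GDNF co-receptor gene Gfra1 rose from 39.5 to 88.5 CPM and its ligand gene Gdnf from 6.99 to 15.1 CPM, while Irx3, an Iroquois factor of nephron patterning, fell from 65.1 to 22.1 CPM. Loop, distal and collecting duct genes were mixed, with 5 of 13 higher and 6 lower. The potassium channel gene Kcnj16 fell 15.6-fold and Mal, an apical sorting proteolipid gene, 6.57-fold, whereas Spp1 (osteopontin) rose 1.82-fold. The 5 higher members became 3 without day 2 A, day 2 C, day 12 B or day 12 C, each left out in turn. Cilium and cystic disease genes fell in 20 of 50 members and rose in 3 (12 fell with limma on TPM). Their share called, 46%, was near the 43.1% of all tested genes, of which 21.7% were called lower. Foxj1, the factor of motile cilia, went from 27.4 to 4.57 CPM and the transition zone gene Tmem231 from 34.4 to 16.8 CPM, while polycystin-1 (Pkd1) rose from 141 to 224 CPM, as did Pkd2 and Iqcb1.

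**Figure D3:**
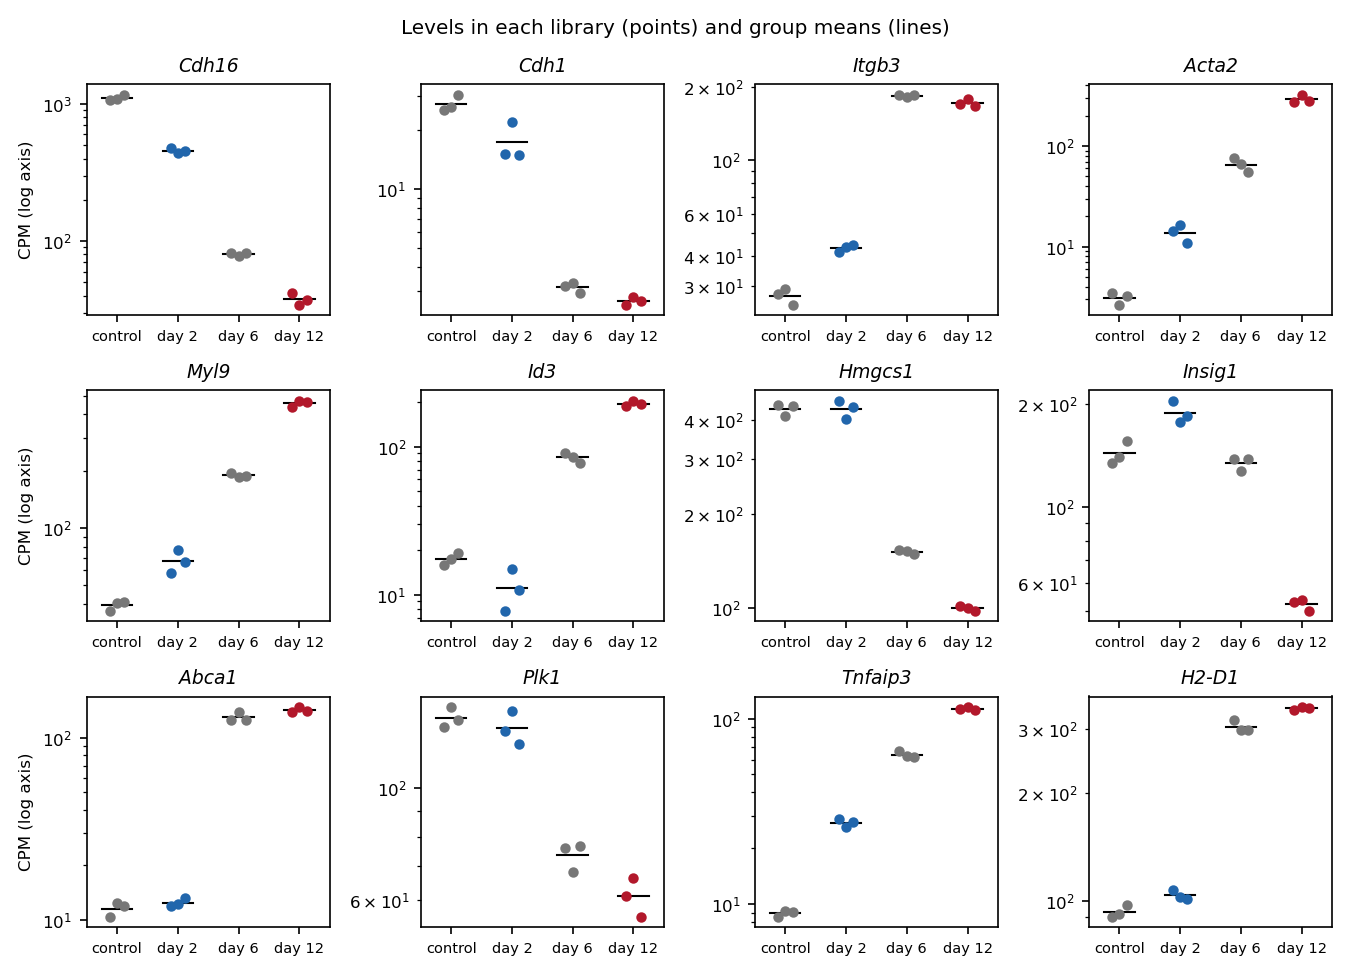
Points give the CPM of each library on log axes for 12 genes, and lines the means of the untreated control, day 2 (blue), day 6 and day 12 (red) groups. Day 2 and day 12 do not overlap in any of the 12 genes; Hmgcs1, Abca1 and Plk1 stand close to the control level at day 2, and Cdh16 and Acta2 have already moved.

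All 27 contractile genes tested were called, 22 higher and 5 lower, with a median log2 change of 0.72. Acta2, the smooth muscle actin that marks myofibroblasts, stood at 14.2, 16.3 and 10.8 CPM on day 2 and 274, 322 and 279 CPM on day 12. The myosin light chain gene Myl9 stood at 57.9, 76.6 and 66.5 CPM and then 437, 468 and 463 CPM. No day 2 library came within a factor of 5 of a day 12 library in either gene. Actg2, the enteric smooth muscle actin, went from 0.587 ± 0.105 to 21.8 ± 2.38 CPM and transgelin (Tagln) from 4.004 ± 0.735 to 53.9 ± 10.99 CPM (SD, n = 3 each), with day 12 A the lowest of the 3 late libraries for both. Lmod1, an actin nucleator of smooth muscle, rose from 3.07 to 9.69 CPM, and the smooth muscle myosin gene Myh11 reached only 2.17 CPM. The 5 falls were also genes of contraction: smoothelin (Smtn) went from 115 to 52.2 CPM, myosin light chain kinase (Mylk) from 294 to 187 CPM and tropomyosin 1 (Tpm1) from 1459 to 1053 CPM, beside Cnn1 and Flnc.

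Many contractile genes are controlled by serum response factor through the CArG box, so the promoters of the list were searched for it on both strands. RefSeq promoter windows of 300 bases (GRCm38.p6, 250 before and 50 after the first listed start) were found for 23 of the 27 genes. A CArG box lay in 4 of them (Myl9, Cnn2, Vcl and Srf), or 17.4%, beside 1.57% of all 27025 promoters. All 4 of these genes rose, as did 18 of the 23 with a window, so most raised genes lacked the box there. The Myl9 window (chr2:156775214-156775513, plus strand) is shown because it holds the box in a strongly raised gene, with the box in capitals.
Myl9: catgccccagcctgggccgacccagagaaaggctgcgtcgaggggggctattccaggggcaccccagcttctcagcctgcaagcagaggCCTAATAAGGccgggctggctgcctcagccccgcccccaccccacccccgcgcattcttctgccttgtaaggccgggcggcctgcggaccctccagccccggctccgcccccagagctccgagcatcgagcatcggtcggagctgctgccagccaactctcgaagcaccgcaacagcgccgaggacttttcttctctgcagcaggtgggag

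Mesenchymal genes rose in 16 of 23 tested members and fell in 5 (median log2 change 0.81). Integrin beta 3 (Itgb3), a receptor for vitronectin and fibronectin, stood at 41.7, 43.6 and 44.6 CPM and then 171, 178 and 167 CPM. The matricellular gene Postn (periostin) stood at 0.136, 0 and 0.255 CPM and then 9.16, 7.47 and 6.35 CPM, and Tnc (tenascin C) rose from 171 to 361 CPM. The late libraries lay above the early ones in all 3 genes. Of the factors that repress E-cadherin or act with it, Snai1 rose from 2.37 ± 0.226 to 7.87 ± 1.23 CPM and Twist2 from 1.28 ± 0.384 to 8.997 ± 1.504 CPM (SD, n = 3 each). Zeb1 rose from 42.3 to 74.3 CPM, a call that limma on TPM did not make. Vimentin (Vim) and fibronectin (Fn1) rose 1.29-fold and 1.64-fold. The lysyl oxidase gene Loxl2 fell from 194 to 94.6 CPM, together with Cdh2, S100a4, Tgfbi and Sparc.

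Fibroblast markers were measured beside these genes. The defining markers Pdgfra and Col3a1 had 0 counts in all 6 libraries, and Col1a1 did not pass the test, with 5.04, 4.95 and 2.72 CPM at day 2 and 3.13, 3.35 and 2.56 CPM at day 12; it was called lower only without day 2 C (adjusted p 0.0411, range 0.0411 to 0.999). Without that library Pdgfrb, which rose from 0.284 to 1.21 CPM, was not called (adjusted p 0.0988, range 0.00496 to 0.114). The summed level of the 5 fibroblast markers was 2.89 to 5.72 CPM at day 2 and 20.1 to 23.4 CPM at day 12, and Dcn made most of the difference. Of 12 genes in the longer fibroblast list, 4 could be tested and 3 rose (Dcn, Postn and Pdgfrb). Whether another cell kind took part in the changed levels was not tested.

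Matrix genes changed in both directions, with 15 of 38 higher and 13 lower and a median near 0 (log2 change 0.04). All 6 chains of basement membrane collagen IV on the list (Col4a1 to Col4a6) fell, and Col18a1, another basement membrane collagen, went from 640.0, 629.7 and 635 CPM to 265, 288 and 286 CPM. Versican (Vcan), a hyaluronan-binding proteoglycan, fell from 121 ± 1.85 to 27.6 ± 1.62 CPM (SD, n = 3 each). The rises were in collagens VI, VIII and XII and in fibulins, with Fbln2 at 15.5, 15.8 and 14.9 CPM and then 59.2, 74.6 and 73.2 CPM. Matrix proteases and their inhibitors rose in 18 of 28 and fell in 5 (3 with limma on TPM). Mmp13 was among the rises, while the aggrecanases Adamts1 and Adamts5 fell from 334 to 82.3 CPM and from 146 to 32.2 CPM, and the membrane-type protease gene Mmp15 from 54.2 to 10.1 CPM. Tubule injury and repair genes rose in 20 of 38 and fell in 10 (4 with limma on TPM). Clu and Spp1 were among the rises, and Sema5a, a semaphorin gene that went from 178 to 34.9 CPM, among the falls.

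Genes of TGF-beta, activin and BMP signalling rose in 34 of 47 tested members and fell in 5 (median log2 change 0.63), and 19 rose at least 2-fold. The helix-loop-helix inhibitors Id1 and Id3, direct targets of BMP-activated SMAD proteins, were among them. Id1 stood at 33.2, 45.7 and 37.9 CPM and then 257, 288 and 294 CPM. Id3 stood at 7.76, 14.8 and 10.8 CPM and then 188, 203 and 193 CPM. Day 2 B was the highest early library for both genes and still lay far below each late library. Of the ligands, Bmp2 rose from 3.18 ± 0.978 to 18.8 ± 1.09 CPM and Bmp6 fell from 135 ± 7.01 to 70.5 ± 1.33 CPM (SD, n = 3 each). Of the antagonists, Grem1 was absent from the day 2 counts (0) and stood at 4.52, 5.91 and 4.81 CPM in the late libraries, at least 39.5-fold higher on the same floor, and the follistatin-like gene Fstl1 rose 2.68-fold. The inhibitory Smad7 rose from 12.7 to 30.1 CPM, and the receptor gene Tgfbr2 fell from 239.6 to 151 CPM.

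Other signalling lists were more divided. WNT genes rose in 16 of 36 and fell in 7; the fallen members were 4 without day 2 B, without day 12 B or with limma on TPM. Dkk3, a secreted Dickkopf family member, went from 100.1, 105 and 96.3 CPM to 358, 358 and 353 CPM, while the ligand gene Wnt7b fell from 46.3 to 15.3 CPM and the co-receptor gene Lrp5 from 174 to 89.2 CPM. YAP and TEAD targets rose in 14 of 32 and fell in 9, with Cdc42ep3, a regulator of septins and actin, at 5.04, 4.71 and 5.87 CPM and then 80.6, 86.0 and 79.7 CPM. Nt5e, the ectonucleotidase CD73, fell from 25.1 to 6.44 CPM and the kinase gene Nuak2 from 71.4 to 32.97 CPM. ERK feedback and MAPK genes rose in 13 of 32 and fell in 9. The receptor kinase genes Met and Egfr were among the falls, Met from 332, 329.6 and 341 CPM to 132, 111 and 132 CPM and Egfr from 79.4 to 40.5 CPM, and the ephrin receptor gene Epha4 among the rises (1.99-fold). Immediate early and AP-1 genes rose in 15 of 26, with Junb from 32.8 to 70.6 CPM and Nr4a1 from 11.6 to 25.4 CPM, and only Ier3 of that list was called lower (73.7 to 53.3 CPM).

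Inflammatory genes were higher in the late state. Of 43 tested NF-kB genes 26 rose and 6 fell (1 with limma on TPM), with a median log2 change of 0.56. Tnfaip3 (A20), a deubiquitinase that NF-kB induces and that limits it, stood at 28.7, 25.9 and 27.7 CPM and then 112, 115 and 111 CPM. Saa3, an acute-phase serum amyloid, stood at 6.13, 3.77 and 7.15 CPM and then 75.1, 73.6 and 78.7 CPM. Both genes separated the days fully, and C3 and Cxcl15, described above, belong to the same list. Tnfaip2 (25.8 to 15.4 CPM) and the macrophage growth factor gene Csf1 (269 to 218 CPM) fell, calls that limma on TPM did not make.

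Antigen presentation by MHC class I is induced by interferons and NF-kB and displays peptides to T cells. Of its 23 tested genes 15 rose, with a median log2 change of 0.71. None was called lower by edgeR or in the 13 alternatives, DESeq2 included, and 0 were lower at an unadjusted p under 0.05. H2-D1 stood at 107, 103 and 101 CPM on day 2 and 341, 346 and 344 CPM on day 12. H2-K1 stood at 146, 148 and 142 CPM and then 294, 299.9 and 290.0 CPM. The spread within a day was small beside the gap in both. B2m, the invariant light chain, rose 1.89-fold and H2-T23 3.76-fold. H2 genes are close paralogs, and how the counting shared reads among them is uncertain at the level of single genes.

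Interferon response genes rose in 27 of 58 tested members and fell in 5 (median log2 change 0.30). The strongest rises were in the p200 family of interferon-inducible DNA-binding proteins, whose genes are closely related neighbours on chromosome 1 and uncertain one by one where reads are shared. Ifi203 stood at 1.77, 1.18 and 1.11 CPM and then 46.5, 48.4 and 44.97 CPM. Ifi205 stood at 0.136, 0.471 and 0.766 CPM and then 23.8, 20.5 and 20.3 CPM. Ifi204 rose from 14.7 to 79.2 CPM and Ifi211, which is not on the list and was chosen after its values were seen, from 3.82 to 62.1 CPM. No late library overlapped an early one in these 4 genes. The falls were Oasl1 (5.91 to 2.58 CPM), Samd9l (86.9 to 45.1 CPM), Ifit3b, Stat2 and Adar, and they numbered 3 without day 12 A, 2 without day 12 C and 2 with limma on TPM.

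The interferon-stimulated response element, searched as GAAANNGAAA on both strands, lay in 26 of the 53 interferon promoters found (49.1%), in 5 of the 20 class I promoters (25%) and in 3.49% of all 27025 promoters. Among the interferon genes with the element 12 rose, 2 fell, 10 were not called and 2 were not tested. Among those without it 9 rose and 3 fell. The Ifi205 window (chr1:174031706-174032005, minus strand) is shown as an example from a strongly raised gene, with both matches in capitals.
Ifi205: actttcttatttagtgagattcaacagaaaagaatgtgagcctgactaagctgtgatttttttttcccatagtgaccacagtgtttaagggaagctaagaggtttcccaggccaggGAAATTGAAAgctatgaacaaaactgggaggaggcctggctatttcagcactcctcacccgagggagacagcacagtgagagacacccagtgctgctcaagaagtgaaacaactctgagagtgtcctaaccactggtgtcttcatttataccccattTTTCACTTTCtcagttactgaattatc

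Leukocyte markers were read beside the inflammatory genes. Ptprc (CD45) and Itgam had 0 counts in all 6 libraries, and the summed level of 5 leukocyte markers was 18.0 to 19.3 CPM at day 2 and 15.2 to 17.7 CPM at day 12. Within it Csf1r fell from 14.7 to 7.64 CPM and Cd68, a lysosomal glycoprotein, rose from 3.81 to 8.56 CPM. Of the 12 genes of the longer leukocyte list only these 2 could be tested. Of 5 endothelial markers Cdh5, Kdr and Emcn had 0 counts in all 6 libraries, and the 5 summed to 0.272 to 1.51 CPM over both days. In the longer endothelial list 3 of 12 genes could be tested and 1, Egfl7, fell. The VEGF receptor gene Flt1 of that list was not near 0, at 41.9, 41.9 and 42.3 CPM on day 2 and 46.1, 43.5 and 44.3 CPM on day 12, and did not pass the test (edgeR adjusted p 0.431). Podocyte and parietal genes rose in 3 of 8 and fell in 4, with Podxl at 118 and then 73.8 CPM; the nephrin gene Nphs1, a defining podocyte marker, stood at 0.697 and then 1.25 CPM, too low to be tested.

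Mitotic genes were lower in the late state by modest amounts. Of 71 G2 and mitosis genes 55 fell and 1, the condensin gene Smc4, rose, with a median log2 change of -0.46. Polo-like kinase 1 (Plk1), which drives entry into mitosis, stood at 129, 142 and 122 CPM and then 61.1, 66.3 and 55.4 CPM. Cyclin B1 (Ccnb1) stood at 229, 221 and 238 CPM and then 136, 136 and 133 CPM, and Aurora A (Aurka) at 135, 157 and 144 CPM and then 78.8, 86.7 and 87.6 CPM. The days did not overlap in any of the 3, and Plk1 was the 1 member that fell at least 2-fold. Topoisomerase II alpha (Top2a) fell from 879.5 to 677 CPM. The proliferation antigen gene Mki67 was not called, with 716, 612 and 854 CPM at day 2 and 748, 758 and 833 CPM at day 12; without day 2 C it was called higher (log2 change 0.24, adjusted p 0.0071, range over 13 alternatives 0.0071 to 0.942).

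Genes of late cell division are commonly controlled through a CHR element and CCAAT boxes. The CHR letters TTTGAA, searched on both strands, lay in 41 of the 59 promoters found for the mitotic list (69.5%), beside 18.1% of all promoters. CCAAT lay in 43 of the 59 (72.9%), beside 37.9% of all. Of the 46 fallen genes with a promoter entry 32 held TTTGAA, and of the 13 uncalled ones 9 did, Mki67 among them. The windows of Plk1 (chr7:122159185-122159484, plus strand) and Aurka (chr2:172370521-172370820, minus strand) are shown to set a pair of fallen mitotic kinases side by side, with TTTGAA and CCAAT in capitals.
Plk1: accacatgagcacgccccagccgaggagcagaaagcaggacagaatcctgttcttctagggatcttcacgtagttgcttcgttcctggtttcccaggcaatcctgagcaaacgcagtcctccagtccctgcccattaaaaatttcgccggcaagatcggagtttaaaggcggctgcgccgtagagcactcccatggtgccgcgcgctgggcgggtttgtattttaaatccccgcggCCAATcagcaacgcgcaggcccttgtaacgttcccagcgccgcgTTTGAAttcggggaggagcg
Aurka: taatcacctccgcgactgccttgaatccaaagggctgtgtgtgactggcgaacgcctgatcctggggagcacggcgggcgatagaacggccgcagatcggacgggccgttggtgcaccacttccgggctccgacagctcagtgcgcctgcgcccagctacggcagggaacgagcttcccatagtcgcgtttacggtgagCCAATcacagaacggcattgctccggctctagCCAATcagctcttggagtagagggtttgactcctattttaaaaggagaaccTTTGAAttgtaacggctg

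S phase genes fell in 25 of 56 members and rose in 1 (median log2 change -0.16), and 9 fell with limma on TPM. The share called, 46.43%, was near the 43.1% of all tested genes, of which 21.7% were called lower. Thymidylate synthase (Tyms) went from 107 ± 4.995 to 62.7 ± 2.33 CPM, the repressor gene E2f8 from 92.2 ± 3.12 to 54.6 ± 2.43 CPM and the replication licensing gene Cdc6 from 63.7 ± 2.74 to 45.02 ± 1.58 CPM (SD, n = 3 each). E2f2 was the 1 rise (12.2 to 16.2 CPM), and its call was lost without day 2 C (adjusted p 0.0624) or day 12 C (0.0896), within a range of 0.00817 to 0.138. Genes listed as p53 targets and CDK inhibitors, with D-type cyclin genes among them, rose in 19 of 43 members and fell in 4. Fas, the death receptor, stood at 1.77, 1.65 and 1.62 CPM and then 15.7, 18.9 and 16.1 CPM, and Ccng1 (cyclin G1) at 55.01, 59.1 and 59.6 CPM and then 138, 164 and 153 CPM. Every late library exceeded every early one in both. Cdkn1a (p21) rose 1.41-fold and Trp53inp1 2.63-fold. Trp53 itself was not called (163 ± 13.7 and 149.7 ± 1.62 CPM, SD, n = 3 each), although without day 2 C it was called lower (log2 change -0.17, adjusted p 0.0333, range 0.0333 to 0.761). The 4 falls were Plk3, Ddit4l and the D-type cyclin genes Ccnd1 and Ccnd3, which are not CDK inhibitors. Ccnd3 changed sign with limma on log2(TPM + 1) (log2 change 0.049, not called). The list had 2 falls without day 2 A or with DESeq2, 1 with limma on TPM and 6 without day 2 C.

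Cholesterol genes had the lowest median log2 change of the functional lists, -1.03, with 26 of 35 members lower and 6 higher. Cells make cholesterol from acetyl-CoA through the mevalonate pathway, and SREBP-2 switches on its enzymes and sterol uptake when sterols are scarce, whereas LXR switches on efflux pumps when they are plentiful. Hmgcs1, HMG-CoA synthase, stood at 462, 405 and 443 CPM on day 2 and 102, 99.7 and 97.8 CPM on day 12 (log2 change -2.13, SE 0.0645, edgeR adjusted p 2e-16). The squalene epoxidase gene Sqle stood at 356, 357 and 338 CPM and then 86.4, 77.4 and 83.5 CPM. Both enzymes separated the days without overlap. Of the other mevalonate pathway genes Acat2, Mvk, Pmvk, Mvd, Idi1 and Fdps fell. Between squalene synthesis and cholesterol Fdft1, Lss, Cyp51, Tm7sf2, Msmo1, Nsdhl, Hsd17b7, Sc5d and Dhcr7 fell, and Ebp did not pass the test.

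Srebf2 and Insig1, which control the pathway, fell too. Srebf2, which encodes SREBP-2, stood at 736, 783 and 686 CPM and then 292, 278 and 285 CPM. The day 12 libraries were all below the day 2 libraries, and Insig1, which holds SREBP in the endoplasmic reticulum, fell 3.63-fold. Of the known LXR targets Abca1, Abcg1 and Mylip took the opposite direction. Srebf1, which LXR also induces, was not among the genes called higher. The efflux pump gene Abca1 stood at 11.8, 12.2 and 13.2 CPM and then 139, 147 and 141 CPM, Abcg1 rose from 22.5 ± 2.51 to 63.4 ± 4.57 CPM and Mylip, a ubiquitin ligase gene, from 25.7 ± 1.05 to 62.01 ± 1.97 CPM (SD, n = 3 each). Insig2, Npc1 and Npc2 were the other 3 rises. At day 2 Hmgcs1 and Abca1 stood near the untreated mean, which was 435 CPM for Hmgcs1 and 11.5 CPM for Abca1.

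**Figure D4:**
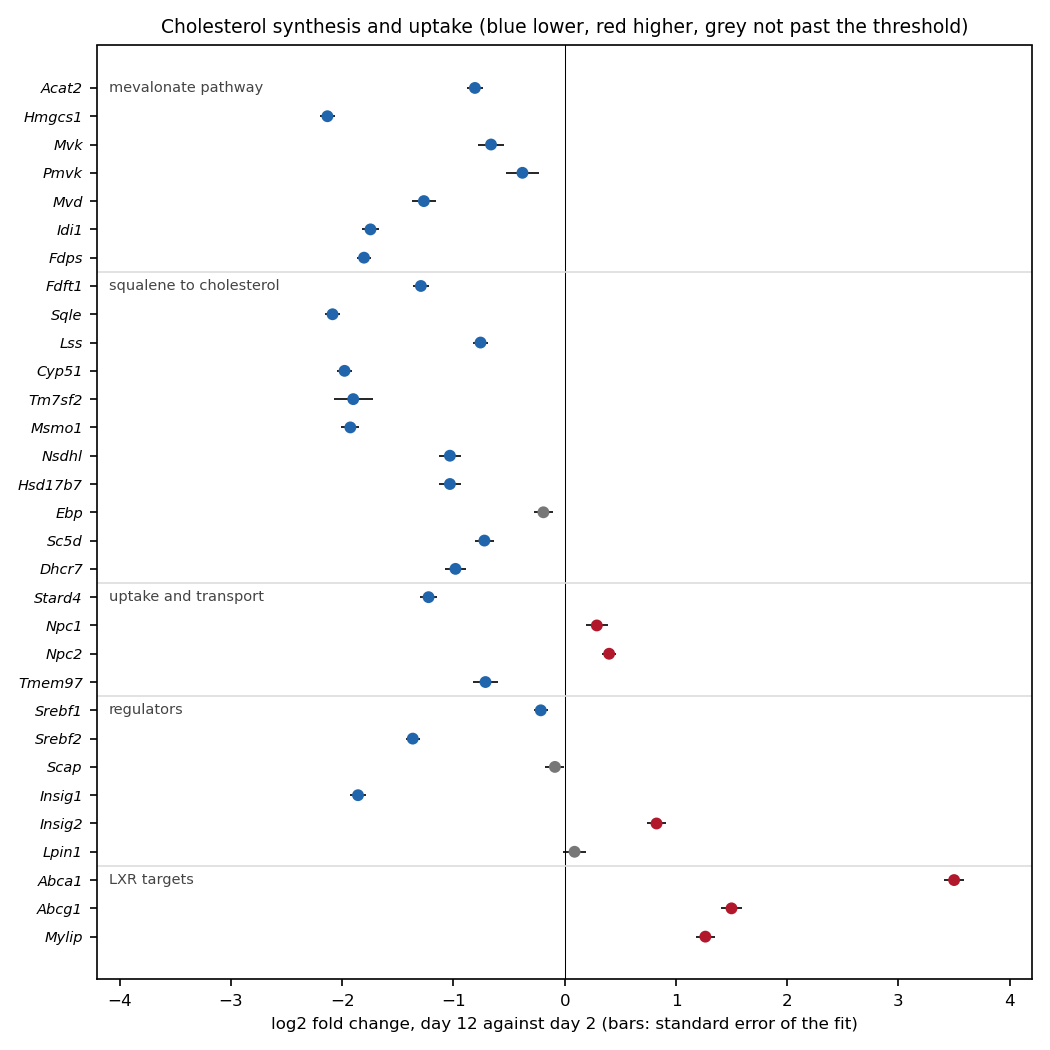
Points give the log2 fold change of day 12 against day 2 for 31 of the 35 cholesterol genes, ordered by role, and bars the standard error of the fit. Enzymes lie to the left of 0, from -2.13 (Hmgcs1) to -0.19 (Ebp, not called). Abca1, Abcg1 and Mylip, the 3 drawn as LXR targets, lie to the right. Srebf1, which LXR also induces, is drawn among the regulators and was not called higher.

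Promoter windows were found for 25 of the 35 cholesterol genes and not for Sqle. The classical sterol regulatory element, searched as TCACNCCAC on both strands, lay in 1 of them, Hmgcs1 (1.22% of all promoters hold it), and CCAAT, the box of the partner factor NF-Y, in 20 (80%). Of the 18 fallen genes with a window 16 held CCAAT, and of the 4 raised ones 3 did. The Hmgcs1 window (chr13:119690101-119690400, plus strand) is shown with the sterol element and the 4 CCAAT matches, all on the opposite strand, in capitals.
Hmgcs1: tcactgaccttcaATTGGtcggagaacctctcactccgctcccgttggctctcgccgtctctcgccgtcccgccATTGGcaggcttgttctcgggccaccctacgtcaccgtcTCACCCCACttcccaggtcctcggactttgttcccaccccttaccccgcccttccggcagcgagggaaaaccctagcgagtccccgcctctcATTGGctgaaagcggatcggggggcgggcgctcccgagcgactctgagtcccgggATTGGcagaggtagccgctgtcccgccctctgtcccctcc

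Fatty acid synthesis genes fell in 16 of 28 members and rose in 4 (10 fell with limma on TPM). The elongase gene Elovl6 stood at 75.3, 77.03 and 71.997 CPM and then 7.88, 10.4 and 10.7 CPM. The desaturase genes Fads1 (698 ± 35.8 to 306 ± 6.24 CPM) and Fads2 (416 ± 35.05 to 163 ± 3.54 CPM; SD, n = 3 each) fell with Scd2. The lipid droplet coat gene Plin2 and the acyl-CoA synthetase gene Acsl5 rose 1.32-fold and 1.39-fold. Fatty acid oxidation and peroxisome genes rose in 6 of 41 members and fell in 10 (5 with limma on TPM), with a median near 0 (log2 change -0.02). The share called, 39.02%, was below the 43.1% of all tested genes. Ppargc1a, a coactivator of mitochondrial biogenesis, fell from 51.6 to 33.4 CPM, and Angptl4, a lipase inhibitor induced by PPARs, rose from 7.78 to 18.4 CPM.

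Glycolytic genes fell in 21 of 27 members and rose in 2, with a median log2 change of -0.70. Lactate dehydrogenase A (Ldha) stood at 1095, 1182 and 1074 CPM and then 558, 621 and 613 CPM, and aldolase A (Aldoa) at 1186, 1233 and 1075 CPM and then 614, 696 and 641 CPM. The late libraries were the lower ones, but day 6 was lower still, with means of 374 and 451 CPM. The monocarboxylate transporter gene Slc16a1 rose 2.04-fold and Ugp2, which makes UDP-glucose, 1.86-fold. Hypoxia response genes, which overlap this list, fell in 12 of 30 and rose in 6. Hif1a, the oxygen-regulated factor, went from 223, 225 and 221 CPM to 551, 569 and 536 CPM, while its targets Car12 (carbonic anhydrase XII) and P4ha1 (collagen prolyl hydroxylase) fell from 61.4 to 13.3 CPM and from 207 to 103 CPM.

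Nuclear genes of the respiratory chain fell in 42 of 61 members by small steps (median log2 change -0.26; 19 fell with limma on TPM). None was called higher by edgeR or DESeq2, and 0 reached an unadjusted p under 0.05 in that direction. Atp5g3, a subunit of the ATP synthase ring, stood at 250.4, 251 and 215 CPM and then 154, 162 and 149 CPM, and Cyc1 (cytochrome c1) at 161, 180.4 and 159 CPM and then 104, 119 and 117 CPM. The gap between the days was wider than the spread within them for both. Among genes encoded by mitochondrial DNA the share called was 15.38%, below the 43.1% of all tested genes. Of the 13 genes encoded by mitochondrial DNA edgeR called none lower (2 at an unadjusted p under 0.05, 1 with DESeq2, 3 without day 2 C and 2 without day 12 A) and 2, mt-Nd3 and mt-Nd4l, higher; with all 12 libraries in the fit neither was called (adjusted p 0.14 and 0.2535, the highest of 13 alternatives for each). Lysosomal genes rose in 23 of 53 and fell in 10 (2 with limma on TPM), with the acid lipase gene Lipa, which frees cholesterol from esters, at 101, 107 and 95.3 CPM and then 208, 192 and 198 CPM, and cathepsin B (Ctsb) up 1.76-fold.

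Genes of amino acid supply controlled by ATF4 fell in 28 of 49 members and rose in 7 (14 fell with limma on TPM). Psat1, of serine synthesis, stood at 216, 214 and 223 CPM and then 119, 115 and 120.2 CPM, and the mitochondrial folate enzyme gene Aldh1l2 at 70.7, 87.6 and 82.4 CPM and then 26.9, 28.3 and 26.5 CPM. Both were lower in each late library, while the stress gene Nupr1 rose from 11.6 to 36.6 CPM. Unfolded protein response genes rose in 13 of 36 and fell in 6, with Ddit3 (CHOP) up 1.7995-fold and Dnajb9 up 1.87-fold. NRF2 and glutathione genes fell in 18 of 41 and rose in 6. Glutathione reductase (Gsr) fell from 151 ± 9.53 to 76.997 ± 3.17 CPM and Akr1b3 (aldose reductase) from 96.9 ± 8.74 to 40.4 ± 2.44 CPM (SD, n = 3 each), whereas the secreted peroxidase gene Gpx3 rose 1.45-fold. Cytosolic ribosomal protein genes fell in 23 of 70 (median log2 change -0.10), and none was called higher by edgeR or DESeq2 (1 at an unadjusted p under 0.05). The share called, 32.86%, was below the 43.1% of all tested genes, of which 21.7% were called lower. The count of falls was 14 without day 12 A and 6 with limma on TPM, and without day 2 C 5 of these genes were called higher.

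Lists tied to the drug and to time of day were small. 4-Hydroxytamoxifen binds oestrogen receptors, and of 13 oestrogen response genes tested 4 rose and 5 fell (3 with limma on TPM); Igfbp4, an IGF-binding protein gene, went from 13.3, 15.1 and 11.7 CPM to 92.2, 88.7 and 88.4 CPM and Celsr2 fell 1.98-fold. Of 7 tested aryl hydrocarbon receptor genes 3 rose and 1 (Slc7a5) fell. Cyp1b1, an oestrogen-metabolising cytochrome that this receptor induces, stood at 19.3, 20.97 and 19.1 CPM and then 73.97, 80.5 and 78.7 CPM, all far above the untreated mean of 1.27 CPM, and Ahr rose 1.87-fold. The third rise, Nqo1 (3.96 to 5.92 CPM), lost its call in 7 of 13 alternatives, among them the fits without day 2 A, B or C or day 12 A or C (adjusted p 0.0553 to 0.106, range over all 0.0214 to 0.123). Clock and PAR bZIP genes rose in 13 of 23 members, and the labels give no time of day at harvest. The repressor gene Nr1d1 rose from 8.3002 to 20.3 CPM and Tef from 109 to 163 CPM. Hlf was counted 2 times in all at day 2 and stood at 4.52, 3.46 and 3.07 CPM at day 12, a ratio of 42.7 with a 95% counting interval of 11.5 to 357. The 1 fall, Bhlhe41 (10.04 to 6.43 CPM), was not called without day 12 C (adjusted p 0.0539, range over 13 alternatives 0.0013 to 0.167) or with limma on TPM, where the list had 0 falls.

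The day 6 libraries, which were not part of the test, were used to place the 1036 genes that differed at least 2-fold. In 804 of them (77.6%) the day 6 mean lay between the means of day 2 and day 12. In 203 it lay beyond the day 12 mean and in 29 beyond the day 2 mean. Acta2, Myl9, Id3, Dcn and Ltbp2 were among the first kind, with day 6 means of 65.4, 189.8, 84.6, 3.91 and 16.5 CPM. Maf, Itgb3 and Pdgfrl were among the second, with day 6 means of 377, 184 and 29.4 CPM against day 12 means of 315, 172 and 27.2 CPM. On mean TPM the counts were 784, 220 and 32.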

How the data were processed

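PolyA RNA of PT-22 cells was sequenced in 12 libraries, and the 3 of day 2 and 3 of day 12 were tested. The submitters' processing notes name RSEM 1.3.3, STAR 2.7.8a, cutadapt 2.3, FastQC 0.11.8 and the build GRCm38 without their roles; annotation release, strand setting and filters are not given in the sources used here. The expected counts, the unit RSEM gives, came from the authors as unnormalized whole numbers. A second deposited table held the authors' TPM values. All columns were used. Replicates differed beyond sampling noise (chi-square per degree of freedom 2.12 to 7.56), so none was a copy.

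Counts were fitted in R 4.3.3 with edgeR 4.0.16 (filterByExpr with a minimum count of 10, TMM, robust quasi-likelihood test, Benjamini-Hochberg adjustment, threshold 0.05, 4 residual degrees of freedom). On simulated data the fit recovered 87% of 2-fold and 67% of 1.5-fold changes, with 100 genes changed by each size among 12978. Of 163 simulated calls 9 were unchanged genes. Far fewer genes were changed there than were called here, so recovery in this comparison may differ. Standard errors are the log2 change divided by the root of F. Alternatives used limma 3.58.1 on log2(TPM + 1) and log2(TPM + 0.1), DESeq2 1.42.0, other scaling, no filter, a replicate block, all 12 libraries, and each library left out. Intervals and floors cover counting error only. Positions are from GENCODE M21 and promoters from RefSeq.

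The comparison and its 40 gene lists were chosen with earlier results of these data known. Named genes are Pax8, Pax2, Hnf4a and Cre, and genes taken by rank. The rankings gave the 10 largest rises and 10 largest falls, and the 6 of highest CPM among 2-fold changes in each direction. Both rankings required a call, a mean of at least 5 CPM and no overlap, and left out predicted genes, pseudogenes, histones and mitochondrial genes. Up to 4 members of smallest p in each list, plus up to 2 going the other way, were also named. Some genes of these lists and rules are not reported here. Genes outside this rule whose values are described, chosen after those values were seen, are Malat1, Ebp, Mylip, Insig1, Tagln, Tpm1, Lmod1, Myh11, Cdh1, Ocln, Vim, Fn1, Snai1, Zeb1, Twist2, Grem1, Ifi211, B2m, Mki67, Top2a, Bmp2, Smad7, Gdnf, Trp53, Cdkn1a, Lrp2, Gpnmb and the cell type markers; others are named without values only to say which members a count holds.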

Additional observations from a re-analysis of the deposited data

How the results depend on the processing

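The count of called genes, 5590 in edgeR's test, was 5585 with DESeq2's size factor scaling, 5693 of 23750 genes with no filter on low counts, 5852 with all 12 libraries in the fit and 4642 with DESeq2. It moved by more than 1.5 times only with limma on the TPM values, to 3539 (pseudocount 1) and 3510 (pseudocount 0.1); the cause was not tested. Leaving out each library in turn gave 4626 to 5607 called genes and 1002 to 1052 with a change of at least 2-fold, against 1036. The other settings gave 712 (limma, pseudocount 1) to 1338 (no filter) genes at least 2-fold apart. A replicate block gave 5773 and 1050 genes. Same-letter deviations correlated at 0.0416, -0.0041 and 0.0160, and not every library correlated best with its own letter. With 3 libraries a day these values cannot decide whether the letters A, B and C pair the libraries. Of 2964 values of 228 named genes under these alternatives, 2894 kept direction and side of the threshold, 52 lost the call, 16 gained one and 2 changed sign, both of Ccnd3, whose log2 change of -0.61 became 0.049 (0.04905 and 0.04962, adjusted p 0.726) with limma on TPM. Most of the named genes were picked for a small p or a large change in these same libraries, which favours keeping the call. Their stability is therefore no separate support. At this depth a gene under about 1 CPM rests on fewer than 12 counts in a library.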
